A study of Mus musculus with 6 samples.

Results

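Adipocyte-like cells were sought among single-cell libraries of injured mouse quadriceps. A barcode, the tag of 1 droplet, was kept when 300 genes or more were detected in it and no more than 15% of its UMIs were mitochondrial (a unique molecular identifier, UMI, counts 1 RNA molecule). A kept barcode was called adipocyte-like when at least 4 of the 7 gate genes Adipoq, Cfd, Car3, Scd1, Plin1, Cidec and Retn were detected in it, when together they made up at least 2% of its UMIs, and when the leukocyte gene Ptprc and the endothelial gene Pecam1 were both at 0. Of 53717 kept barcodes in all, 319 met the rule. CLL replicate 2 alone gave 295 of them (92.5%), CLL replicate 3 gave 14, CLL replicate 1 gave 6 and SHAM replicate 1 gave 4. SHAM replicates 2 and 3 gave 0. The identity of these barcodes therefore describes mostly 1 mouse, and group comparisons carry that limit.

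The 6 mice carried Cdh5-CreERT2:R26R-tdTomato, a red reporter switched on by a tamoxifen-dependent Cre that is driven by the promoter of the endothelial cadherin gene. Of these, 3 received clodronate liposomes (CLL), which kill phagocytes that take them up, and 3 received buffer-filled liposomes (SHAM). In both groups liposomes came 1 day ahead of the injury and again 2 days after it, the injury being cardiotoxin, which kills muscle fibres. Muscles were taken on day 5, so every mouse was injured and none serves as an uninjured control. Each library came from 1 mouse, and the sex, the age and the doses were not stated in the labels.

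White adipocytes store triglyceride in a large lipid droplet. Pparg and Cebpa, the transcription factors of adipocyte identity, switch on the genes for fatty acid uptake, triglyceride synthesis and the droplet's protein coat, and catecholamines and insulin set the balance of lipolysis and storage. Adipocytes also secrete proteins, among them adiponectin, leptin, adipsin and several acute-phase proteins. In muscle, adipocytes lie between the fibres and arise from fibro-adipogenic progenitors, which are Pdgfra-positive connective tissue cells that multiply after injury.

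The 7 gate genes chose the members, so their levels are a description. Levels here are CPM, a gene's depth-scaled count in the sum over all barcodes of 1 kind in 1 library. They are given in the order CLL replicates 1, 2 and 3, then SHAM replicate 1. UMIs were counted from 3' ends without length scaling, so levels are compared between samples and cell kinds and not between genes. The adiponectin gene Adipoq stood at 2978, 4145, 3322 and 3353 CPM, and Cfd, the gene for adipsin, at 10384, 9764, 9218 and 17577 CPM. Car3, a carbonic anhydrase of adipocytes and of slow muscle fibres, stood at 12056, 14579.8, 8367 and 19541 CPM, and Scd1, the stearoyl-CoA desaturase, at 16962, 13201, 14906 and 15063 CPM. Plin1, the perilipin that coats the droplet, stood at 520.5, 850.1, 800.1 and 1245 CPM, Cidec, a droplet fusion protein gene, at 921, 614, 992 and 1078 CPM and Retn, the resistin gene, at 691, 193, 515 and 1700.2 CPM. Retn was lowest in CLL replicate 2 and highest in SHAM replicate 1, and the same 4 libraries were much closer for Adipoq and Scd1.

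The rule had no natural gap in CLL replicate 2. With at least 4 gate genes detected and no Ptprc or Pecam1, 75 barcodes had a gate share from 1.5% to 2%, just outside the rule, and 71 had 2% to 2.5%, just inside. Another 184 had 2.5% to 5% and 40 had 5% to 10%. At a share of 2% or more, 3 barcodes with 3 gate genes fell just outside and 47 with exactly 4 fell just inside, while 53 held all 7. The median gate share of the members was 3.31% in CLL replicate 2, 3.77% in CLL replicate 1, 3.46% in CLL replicate 3 and 5.47% in SHAM replicate 1.

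Depth differed between the libraries. Members had a median of 7735, 2098 and 32898.5 UMIs in CLL replicates 1 to 3 and 10443.5 in SHAM replicate 1, with median mitochondrial shares of 2.66%, 3.42%, 6.15% and 10.6%. Over all kept barcodes the median was 14193.5, 1616 and 9730.0 UMIs in CLL and 2919.5, 9496 and 885 in SHAM, and total deposited counts ran from 23873416 to 94841003 UMIs per library. No barcode sequence of a member occurred in another library as a member, and library pairs shared 2 to 74 kept barcode sequences, 0.106% to 1.06% of the smaller library. Doublets were not removed. Scrublet, run per library and set to mark 0.8% of barcodes per 1000 deposited, marked 7660 barcodes in all and 2 of the 319 members, both in CLL replicate 2.

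**Figure D1:**
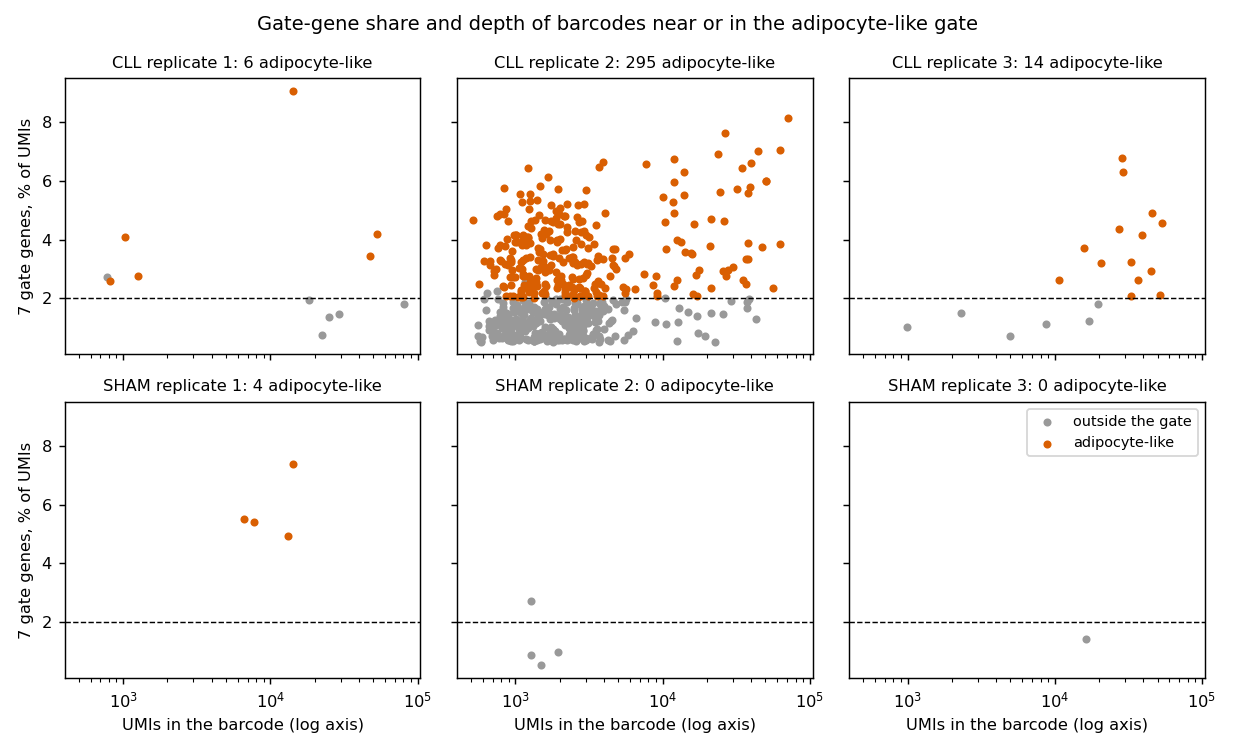
Each point is a kept barcode without Ptprc or Pecam1 that holds at least 3 gate genes making up at least 0.5% of its UMIs. The x axis gives its UMIs on a log scale, the y axis the percentage of UMIs in the 7 gate genes, the dashed line the 2% threshold, and orange the members, 295 of them in CLL replicate 2, where points run through the threshold without a gap.

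Genes outside the rule were used to check the label. Of 8 adipocyte markers that the gate did not use (Pparg, Cebpa, Lep, Lipe, Plin4, Fabp4, Lpl and Acsl1), 7 were present in all 4 libraries with members, and the leptin gene Lep was present in the 3 CLL libraries. Fabp4, the fatty acid carrier of adipocytes, which capillary endothelium also makes, stood at 39786, 46419.9, 48849 and 47439 CPM. In fibroblast-like barcodes of the same libraries it stood at 26.1, 242, 26.1 and 604 CPM. Those fibroblast-like barcodes served as reference. They held at least 4 of Dcn, Col1a1, Col1a2, Col3a1, Lum and Pdgfra at 1% of UMIs or more, with no Ptprc or Pecam1, and numbered 1796, 6662 and 2929 in CLL and 6549 in SHAM replicate 1.

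The factors behind the label were even across libraries. Pparg stood at 230.4, 223, 274 and 239 CPM in the members and at 1.51, 3.17, 1.399 and 4.62 CPM in fibroblast-like barcodes. Cebpa stood at 333, 251, 274 and 383 CPM and at 9.34, 9.55, 9.93 and 23.9 CPM. No member sum came near the fibroblast-like sums of either gene, and the counting intervals of Pparg overlapped between the 4 member sums, with 95% exact Poisson intervals of 152 to 335 CPM in CLL replicate 1 and 115 to 440.4 CPM in SHAM replicate 1. Intervals of this kind cover counting error only. These values went with the adipocyte label.

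Detection was compared at equal depth, with fibroblast-like barcodes as the cells that should lack these genes. In CLL replicate 2 every barcode of at least 1000 UMIs was drawn down to 1000, which kept 256 of 295 members and 5326 of 6662 fibroblast-like barcodes. Of the thinned members, 100% held a UMI of Fabp4, against 13.6% of thinned fibroblast-like barcodes. Unthinned, the shares were 100% and 25.04% at median depths of 2098 and 1874 UMIs. For Lipe, the hormone-sensitive lipase gene, 23.8% of thinned members and 0.601% of thinned fibroblast-like barcodes held a UMI (51.5% and 1.83% unthinned). For Pparg these shares were 19.5% and 0.469% (39.3% and 1.71% unthinned). The 7 gate genes together made up 44513, 43347, 38118 and 59556 CPM of the members and 29.6, 204, 33.8 and 42.3 CPM of fibroblast-like barcodes, where CLL replicate 2 was the highest of the 4.

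Markers of other cell types were read in the same sums. The 12 fibroblast markers summed to 15256, 6969.7, 8009 and 4095 CPM in the members, all present in CLL replicates 2 and 3, with 1 at 0 in CLL replicate 1 and 4 at 0 in SHAM replicate 1. They summed to 45891 to 51570.4 CPM in fibroblast-like barcodes and to 9104 to 13898 CPM in macrophage-like barcodes, which hold Ptprc and at least 3 of C1qa, C1qb, C1qc, Csf1r, Adgre1 and Mrc1. Beside the macrophage-like barcodes of the same library, the members held more of these transcripts in CLL replicate 1 and fewer in the other 3 libraries. In CLL replicate 1 a single barcode gave 340 of the 399 UMIs of the marker Col1a1, so that sum does not describe its 6 members evenly. Pdgfra, the receptor that defines fibro-adipogenic progenitors, was at 0 in CLL replicate 1 and SHAM replicate 1 and at 8.89 and 10.6 CPM in CLL replicates 2 and 3, against 69.3 and 83.95 CPM in their fibroblast-like barcodes. The fibroblast-like gate itself used Pdgfra and others of these markers, so both gaps to that reference are a description. Of the 6 markers outside that gate, tested in the fit described below, 5 were lower in the members and Gsn was higher.

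The 12 macrophage markers summed to 68.3, 529, 134 and 311 CPM in the members and to 22566 to 26390.5 CPM in macrophage-like barcodes. The macrophage-like gate was set on genes among these markers, so this gap is a description too. Barcodes with Ptprc or Pecam1 had been left out by the rule, and the 8 other endothelial markers summed to 0, 4.71, 0 and 95.8 CPM, with all 8 at 0 in CLL replicates 1 and 3. The 12 myofibre markers summed to 17.1, 132, 40.4 and 71.8 CPM, against 50.5, 238, 89.4 and 463 CPM in fibroblast-like barcodes. They are genes of fast fibres or of all fibres, and slow fibres, which also make Car3, were not looked at separately. The 7 myogenic markers summed to 188, 30.3, 100 and 119.7 CPM in the members and to 15.8, 15.3, 57.02 and 121 CPM in fibroblast-like barcodes, so the members of the 3 CLL libraries were higher. The 6 glial markers summed to 17.1, 283, 25.5 and 23.9 CPM and to 19.4, 86.5, 22.2 and 230.2 CPM, and the 7 mural markers to 265, 314, 329.8 and 192 CPM and to 666, 775, 872 and 938 CPM. In the fit described below, 4 of 7 myogenic, 3 of 6 glial and 3 of 6 mural markers tested were called higher in the members. The myogenic marker Myog and the mural marker Acta2 were called lower. Over all genes tested in that fit, 16.4% were called higher and 20.8% lower. Markers of T and NK cells and of red cells were at 0 or at 1 UMI in every library. The 5 neutrophil markers summed to 17.1, 19.9, 17.0 and 71.8 CPM in the members. In fibroblast-like barcodes they summed to 0.984, 3.24, 0.688 and 174 CPM, so members were higher in the CLL libraries and lower in SHAM replicate 1. The member sums rest on few counts. In SHAM replicate 1 the sum stood at the level of 3 counts, and in CLL replicates 1 and 3, 4 of the 5 markers were at 0. Of the 3 neutrophil markers tested in that fit, S100a8 was called higher (log2 fold 4.83) and none lower. A single barcode gave most of the pericyte gene Rgs5 in CLL replicate 2, 140 of its 159 UMIs. The part of these other cell types in the results below was not tested.

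**Figure D2:**
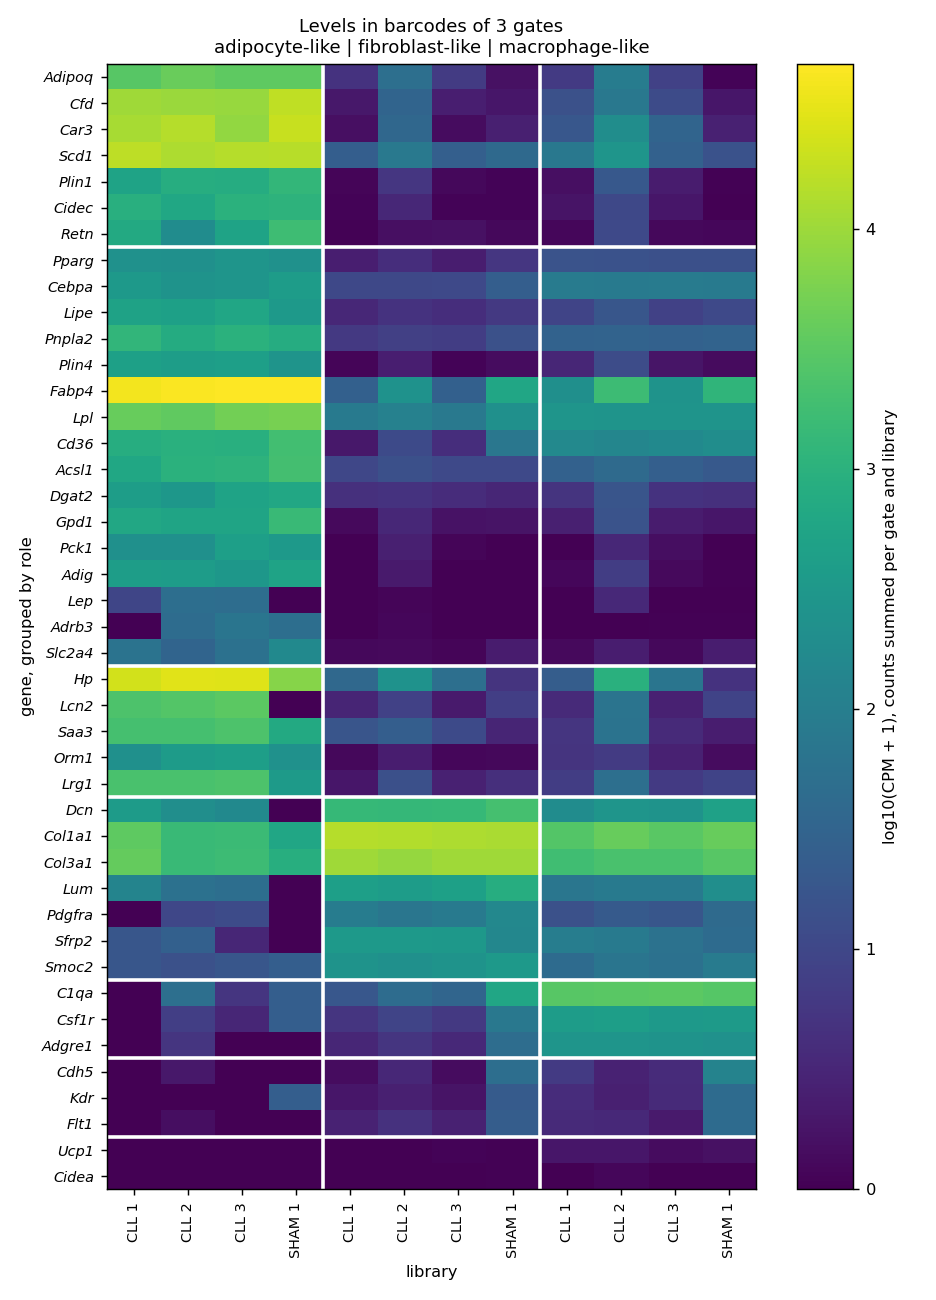
Colour gives log10(CPM + 1) of counts summed per library for genes (rows, grouped by role) in adipocyte-like, fibroblast-like and macrophage-like barcodes (column blocks) of the 4 libraries with members. Adipocyte genes are bright in the left block in all 4 libraries, Lcn2 is at 0 in SHAM replicate 1, and Ucp1 and Cidea are at 0 in the left block throughout.

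The added reporter sequence, named Tomato, stood at 76.8, 69.1, 65.96 and 71.8 CPM in the members, at 51.8, 48.1, 50.5 and 133 CPM in fibroblast-like barcodes and at 74.02, 70.1, 70.4 and 214 CPM in macrophage-like barcodes. At 1000 UMIs, 4.69% of members and 4.73% of fibroblast-like barcodes of CLL replicate 2 held a UMI (23.1% and 17.4% unthinned), and the share in macrophage-like barcodes, where the endothelial promoter is not active, was 6.53% at 1000 UMIs and 34.2% at their median depth of 6743 UMIs. At 1000 UMIs the share of members thus lay close to that of fibroblast-like barcodes in CLL replicate 2. The member sums lay above the fibroblast-like sums in every CLL library and below in SHAM replicate 1. In CLL replicate 1 the member sum rests on 9 UMIs, 7 of them from 1 barcode, and in SHAM replicate 1 on 3 UMIs. The direction in these libraries is therefore uncertain. No background level was measured, and the source of these reads was not tested. The call of Tomato against fibroblast-like barcodes (log2 fold 0.60 ± 0.19 SE) was lost over 4 libraries.

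The upstream sequences shown are those of the gate gene Plin1, the marker Lep outside the gate, and Lcn2, named in the contrast between groups below. They were picked from the 6 of 16 windows looked up, for 12 of 18 genes, that held the motif described here. They are the 250 bases before the start site, read 5′ to 3′ on the gene's strand, from RefSeq on build GRCm38.p6, the assembly behind the mm10 build of the files. Capitals mark TTGCNNAA, a C/EBP motif, on either strand.
Plin1, chr7:79732777-79733026, minus strand: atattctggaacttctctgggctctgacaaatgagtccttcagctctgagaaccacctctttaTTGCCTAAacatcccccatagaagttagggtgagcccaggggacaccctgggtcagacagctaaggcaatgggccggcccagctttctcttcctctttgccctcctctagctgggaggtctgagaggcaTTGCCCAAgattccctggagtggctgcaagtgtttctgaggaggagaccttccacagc
Lep, chr6:29059971-29060220, plus strand: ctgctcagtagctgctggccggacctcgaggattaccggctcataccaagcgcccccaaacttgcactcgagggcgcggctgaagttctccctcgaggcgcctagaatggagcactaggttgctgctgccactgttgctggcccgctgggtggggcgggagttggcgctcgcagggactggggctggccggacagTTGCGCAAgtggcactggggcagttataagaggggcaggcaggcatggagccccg
Lcn2, chr2:32387740-32387989, minus strand: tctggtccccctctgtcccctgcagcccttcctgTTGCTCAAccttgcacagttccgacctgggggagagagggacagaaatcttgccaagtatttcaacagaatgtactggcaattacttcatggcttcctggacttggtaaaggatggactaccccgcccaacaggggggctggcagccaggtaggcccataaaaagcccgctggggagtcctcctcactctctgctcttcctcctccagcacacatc
In Plin1 the motif began 187 and 58 bases before the start, in Lep 55 and in Lcn2 216. Of 32851 upstream windows of 250 bases, 9.56% held this motif, so a match is common and describes these letters only.

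Each library's members were then set beside its fibroblast-like barcodes. Members chosen by adipocyte genes had to be higher in whatever accompanies those genes, so the folds describe the barcodes and carry no weight as a test. The fit used edgeR with the library as a block on CLL replicates 2 and 3, the libraries with at least 10 members. Of 14147 genes tested, 2326 were higher in the members (16.4%) and 2948 lower (20.8%) at an adjusted p below 0.05, and the median log2 fold over all genes was -0.24. A fit over all 4 libraries with members tested 12942 genes and gave 1919 higher (14.8%) and 2575 lower (19.9%). Without CLL replicate 2 it gave 882 and 1230, and without CLL replicate 3 it gave 1329 higher. Below, log2 folds are those of CLL replicates 2 and 3, and levels cover all 4 libraries. The standard error (SE) beside an edgeR fold is the size of the fold over the square root of its F statistic. Here it rests on 2 mice.

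Of 15 adipogenic transcription factors, 10 were higher and Cebpd was lower. The log2 fold of Pparg was 6.89 ± 0.20 SE and that of Cebpa 4.87 ± 0.18 SE. Srebf1, which drives lipogenic genes, stood at 469, 273, 368 and 623 CPM in the members and at 17.01, 16.5, 18.6 and 19.9 CPM in fibroblast-like barcodes (log2 fold 4.29 ± 0.17 SE). Nr1h3, the oxysterol receptor LXR alpha, stood at 51.2, 103, 119 and 47.9 CPM and at 4.16, 5.505, 6.06 and 9.11 CPM. The members' values of both genes lay above the fibroblast-like values in all 4 libraries. Cebpd, an early factor of adipocyte differentiation, stood at 17.1, 78.5, 80.9 and 431 CPM in the members and at 177, 170, 197 and 245 CPM in fibroblast-like barcodes. It was lower in the members of the 3 CLL libraries and higher in those of SHAM replicate 1.

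Of 15 listed genes of the lipid droplet and of lipolysis, 14 were tested and 13 were higher, with none lower (median log2 fold 4.49). Lipe stood at 495, 469.8, 583 and 335 CPM in the members and at 2.35, 3.85, 3.097 and 5.09 CPM in fibroblast-like barcodes. Pnpla2, the gene for adipose triglyceride lipase, stood at 1229, 782, 1004 and 814 CPM and at 5.12, 6.74, 6.06 and 13.6 CPM. Both lipases were present in all 4 libraries at levels no fibroblast-like sum reached. G0s2, which inhibits that lipase, stood at 572, 1558, 1294 and 1604 CPM, and Plin4, a further perilipin, at 461, 399, 434 and 263 CPM. Log2 folds were 7.35 ± 0.20 SE for Lipe, 7.23 ± 0.20 SE for Pnpla2, 5.41 ± 0.19 SE for G0s2 and 9.27 ± 0.23 SE for Plin4. Plin2, the droplet coat protein that many cells make, stood at 469, 536, 538 and 263 CPM with a log2 fold of 3.68 ± 0.17 SE.

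Of 20 genes of fatty acid and triglyceride synthesis, 19 were higher and none lower (median 3.29). Gpd1, the glycerol-3-phosphate dehydrogenase, stood at 657, 548, 551 and 1485 CPM and Pck1, which feeds glyceroneogenesis, at 222, 225, 445 and 335 CPM. Their log2 folds were 8.70 ± 0.22 SE and 8.68 ± 0.22 SE. Dgat2, which adds the last acyl chain of triglyceride, stood at 409.5, 298, 519 and 647 CPM and Acsl1, which activates fatty acids, at 614, 1006, 1062 and 1916 CPM. All 4 genes were at least as high in SHAM replicate 1 as in CLL replicate 1. Fasn, the fatty acid synthase, stood at 51.2, 173, 123 and 934 CPM in the members and at 39.1, 36.3, 39.6 and 28.8 CPM in fibroblast-like barcodes, with a log2 fold of 2.13 ± 0.17 SE.

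Of 12 genes of lipid uptake and caveolae, 10 were higher and none lower (median 3.85). Fabp4 had a log2 fold of 9.33 ± 0.24 SE. Lpl, the lipoprotein lipase, stood at 4002, 3529, 4956 and 5436 CPM and the fatty acid transporter Cd36 at 828, 957, 892 and 1868 CPM. Cav1, the caveolin of adipocyte and endothelial membranes, stood at 785, 695, 785 and 1341 CPM. SHAM replicate 1 was the highest library for all 3 genes. Fabp5, a carrier of wider expression, stood at 495, 1327, 1043 and 1197 CPM against 609.6, 888, 655 and 563 CPM, and its call (log2 fold 0.74 ± 0.16 SE) was lost over 4 libraries.

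Of 13 genes of insulin action and glucose uptake, 11 were higher, and Ptpn1, a phosphatase that turns insulin signalling down, was lower. Slc2a4, the insulin-regulated glucose transporter GLUT4, stood at 59.7, 30.9, 55.3 and 168 CPM in the members and at 0.252, 0.302, 0.161 and 1.302 CPM in fibroblast-like barcodes (log2 fold 7.53 ± 0.54 SE). Trarg1, which helps to move that transporter, stood at 239, 190.4, 211 and 0 CPM, so it was absent from the 41759 UMIs of SHAM replicate 1. Pfkfb3, a glycolytic regulator, had a log2 fold of 3.69 ± 0.18 SE. Of 11 listed receptors and effectors of lipolysis, 9 were tested and 6 were higher. Adrb3, the adipocyte beta-3 adrenoceptor, stood at 0, 44.99, 65.96 and 47.9 CPM. Hcar2, an anti-lipolytic receptor for ketone bodies and niacin, stood at 93.9, 57.02, 61.7 and 23.9 CPM, and Prkar2b, the regulatory subunit of protein kinase A of adipocytes, at 247, 287, 232 and 287 CPM. Only Adrb3 was at 0 in a library among these 3, namely CLL replicate 1.

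Of 17 secreted proteins, 14 were higher and Apln and Gpx3 were lower. Haptoglobin, the haemoglobin-binding acute-phase protein of Hp, stood at 23105, 30190.1, 29164 and 6753 CPM in the members and at 37.8, 247, 51.5 and 4.02 CPM in fibroblast-like barcodes (log2 fold 8.15 ± 0.23 SE). Lcn2, the siderophore-binding lipocalin, stood at 2346, 2711, 3168 and 0 CPM (log2 fold 9.93 ± 0.24 SE), and Saa3, a serum amyloid made outside the liver, at 2005, 1984, 2398 and 694 CPM (log2 fold 7.21 ± 0.21 SE). Hp, Lcn2 and Saa3 were lowest in SHAM replicate 1. The apolipoprotein gene Apoe stood at 14240.4, 13397, 10863 and 13386 CPM and the orosomucoid gene Orm1 at 222, 379, 429.8 and 239 CPM. These 2 genes did not set SHAM replicate 1 apart.

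Brown and beige markers gave a mixed picture. Of 13 listed genes 9 were tested, of which 7 were higher and Tmem26 was lower. Cox8b, a cytochrome oxidase subunit of brown fat and muscle, stood at 171, 184, 200 and 527 CPM and the potassium channel gene Kcnk3 at 42.7, 50.2, 65.96 and 23.9 CPM. Ppargc1a, a coactivator of mitochondrial genes, stood at 8.53, 6.801, 12.8 and 0 CPM. Ucp1, the uncoupling protein that defines brown adipocytes, and Cidea, its companion marker, were at 0 of 1911552 UMIs in CLL replicate 2, which allows up to 1.57 CPM by a limit of 3 counts, and at 0 in the other 3 libraries. In SHAM replicate 1 that limit was 71.8 CPM.

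Named by size, the genes with the largest folds over fibroblast-like barcodes were Apoc4, Ffar2, Lcn2, Aldh3b2, Wfdc21, Adig, Fabp4, Plin4, Orm1 and Adrb3. They were chosen among genes past the threshold in the same direction in both libraries and at 50 CPM or more. Listed markers of other cell types were left out beforehand, so neither direction could name them. Mitochondrial, ribosomal, haemoglobin and Gm or Rik genes were left out too. Adig, the adipogenin gene named for its part in adipogenesis, stood at 401, 397, 309 and 527 CPM, and Ffar2, a receptor for short-chain fatty acids, at 76.8, 109, 145 and 119.7 CPM. Wfdc21, a whey acidic protein family gene, stood at 1775, 1932, 1834 and 2347 CPM. All 3 were present in the 4 libraries, with log2 folds of 9.44 ± 0.23 SE, 10.05 ± 0.30 SE and 9.66 ± 0.23 SE.

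The 10 with the largest folds downward by the same rule were Ltbp1, Thbs4, Itga11, Has1, Tnmd, Sfrp2, Armh4, Flrt2, Pxdc1 and Smoc2, which include matrix and tendon genes. The thrombospondin gene Thbs4 stood at 367, 159, 115 and 47.9 CPM in the members and at 2548, 2478, 2674 and 1239 CPM in fibroblast-like barcodes (log2 fold -4.09 ± 0.19 SE). Tenomodulin, Tnmd, stood at 0, 17.8, 6.38 and 0 CPM and at 207, 274, 206 and 112 CPM. Of 12 progenitor genes 11 were tested, of which 9 were lower and Cd55 was higher (median -2.31). The receptor gene Pdgfrb stood at 8.53, 9.42, 19.2 and 0 CPM in the members and at 110.5, 80.7, 111 and 115 CPM in fibroblast-like barcodes, Cd34 at 51.2, 13.6, 6.38 and 0 CPM and at 67.5, 73.7, 57.4 and 108 CPM. The members of each library lay below its fibroblast-like barcodes for both genes.

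Inflammatory genes went both ways: of 12, 4 were higher and 5 lower. Serpina3n, a protease inhibitor of the acute phase, stood at 401, 234, 221 and 71.8 CPM (log2 fold 3.64 ± 0.17 SE), and the chemokine gene Cxcl10 at 384, 181, 177 and 503 CPM (log2 fold 1.34 ± 0.16 SE). The monocyte attractants Ccl2 and Ccl7 had log2 folds of -1.07 ± 0.16 SE and -1.16 ± 0.17 SE, and the cytokine gene Il6 -2.20 ± 0.32 SE, a call that DESeq2 did not make (adjusted p = 0.208, log2 fold -3.75). Of 13 immediate early genes, which respond to stress and dissociation, 7 were lower and none higher, among them Fos (-0.78 ± 0.16 SE), Egr1 (-1.12 ± 0.16 SE) and Ier3 (-2.05 ± 0.17 SE). Of 13 glycolysis genes, 5 were higher and 4 lower. The aldolase gene Aldoa had 1.46 ± 0.16 SE, and Slc16a3, the lactate exporter, had -3.83 ± 0.31 SE at 0, 4.71, 8.51 and 0 CPM. Of 12 interferon response genes, 5 were higher, with Ifi27 at 2.27 ± 0.16 SE, and Isg15 was lower.

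**Figure D3:**
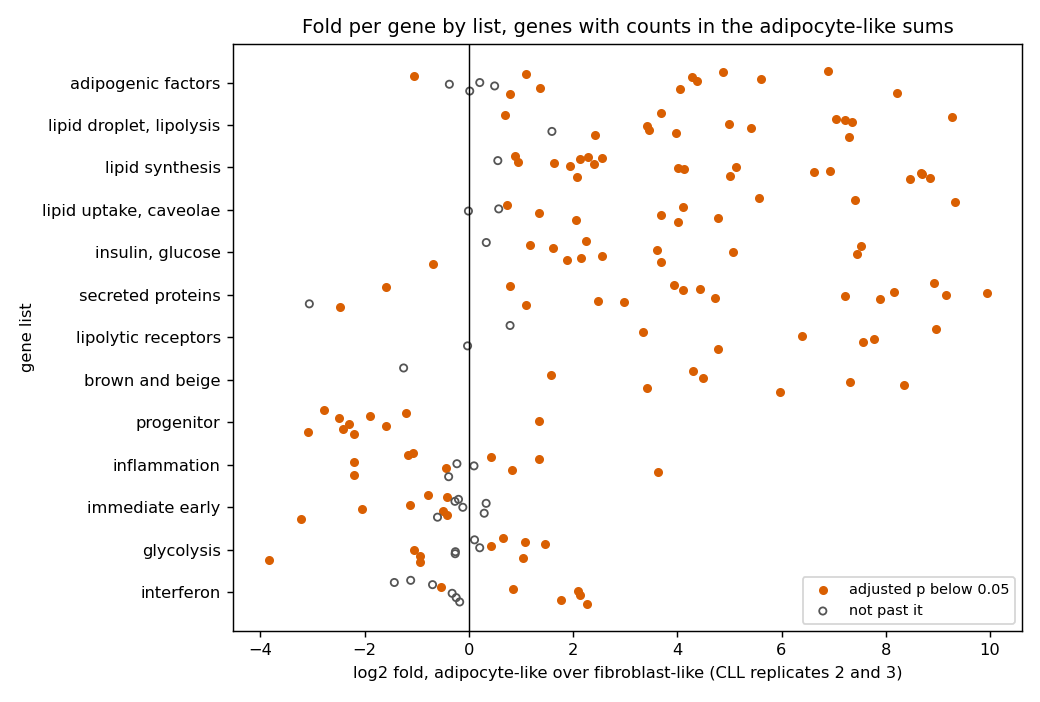
Each point is a gene with counts in the adipocyte-like sums. The x axis gives its log2 fold of adipocyte-like over fibroblast-like barcodes in CLL replicates 2 and 3, rows are gene lists, and filled points passed an edgeR adjusted p of 0.05; genes of the droplet, of lipid synthesis and of uptake lie mostly to the right of 0 and progenitor genes mostly to the left, with Cd55 to the right.

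The 295 members of CLL replicate 2 varied with depth. Of them 39 held under 1000 UMIs, 159 held 1000 to 3000, 47 held 3000 to 10000 and 50 held more. From the shallowest to the deepest of these bins, Fabp4 rose in steps from 20799 to 29676, 35614 and 52216 CPM, and Lipe from 186 to 278, 348 and 536 CPM. Fibroblast markers summed to 11190, 12236, 11040 and 5131 CPM in the same order, and macrophage markers to 1519, 2211, 996 and 81.4 CPM. The gate share did not follow depth in steps, with medians of 3.27%, 3.29%, 2.99% and 3.94%. The deepest barcodes thus held the most Fabp4 and the least of the other types' markers, and the part of free RNA in the shallow ones was not tested.

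Acute-phase genes were uneven between the barcodes of that library. Hp was detected in all 295 members, from 1764 to 68085 CPM with a median of 18614. Lcn2 was detected in 75.6%, with a median of 1091 CPM and a maximum of 12494 CPM, and in 2.33% of fibroblast-like barcodes. At 1000 UMIs these shares were 60.9% and 1.11%. Saa3 was detected in 61.02%, up to 19035.5 CPM, and in 4.22% of fibroblast-like barcodes, or in 49.2% and 2.27% at 1000 UMIs. Across the 97 members of at least 3000 UMIs, which share 1 library, Spearman's rho was 0.54 between Hp and Lcn2, 0.55 between Hp and Fabp4, 0.24 between Hp and Saa3 and -0.06 between Lcn2 and Saa3, given as a description. Of the 14 members of CLL replicate 3, Hp gave 111 to 2373 UMIs, Lcn2 0 to 459 and Saa3 1 to 357.

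Whether such cells were more frequent after clodronate was the next comparison. Members were 0.163% of kept barcodes in CLL replicate 1 (6 of 3672), 2.58% in CLL replicate 2 (295 of 11435) and 0.234% in CLL replicate 3 (14 of 5978). Their 95% exact binomial intervals were 0.0600% to 0.355%, 2.30% to 2.89% and 0.128% to 0.393%. In SHAM they were 0.0165% in replicate 1 (4 of 24188, 0.00451% to 0.0423%), 0 of 1879 barcodes in replicate 2, which allows a share of up to 0.160%, and 0 of 6565 in replicate 3, which allows up to 0.0457%, both by a limit of 3 counts. The 95% exact binomial upper limits of these empty libraries were 0.196% and 0.0562%. Every CLL library's measured share lay above every SHAM library's. The exact limit for SHAM replicate 2 was above the 0.163% of CLL replicate 1 and below the 0.234% of CLL replicate 3. By that limit, a share like that of CLL replicate 1 could have gone unseen in SHAM replicate 2. The intervals of CLL replicates 1 and 3 overlapped that of SHAM replicate 2, and single libraries were not tested against each other.

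The mean share was 0.992 ± 1.38% in CLL and 0.00551 ± 0.00955% in SHAM (SD, n = 3 each), a difference of 0.987 percentage points. The two-sided exact permutation test gave p = 0.10, the smallest that 3 libraries against 3 can give, so the difference did not pass. Without CLL replicate 2 the difference was 0.193 points. A gate on 8 other adipocyte genes (Fabp4, Lipe, Plin4, Pnpla2, Gpd1, Acsl1, Dgat2 and Lpl) found 287 barcodes, 197 of them members, with a lowest CLL share of 0.218% and a highest SHAM share of 0.160%. Drawn down to 1000 UMIs, 281 barcodes met the rule, with a lowest CLL share of 0.222% and a highest SHAM share of 0.0430%. Without Car3 in the gate 163 remained, and with a gate share of at least 5%, 46. The groups did not overlap under any of these rules. Per 1000 fibroblast-like barcodes, members numbered 17.5 ± 23.2 in CLL and 0.204 ± 0.353 in SHAM. How dissociation and the density step, in which fat-laden cells can be lost, bear on these shares was not tested.

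**Figure D4:**
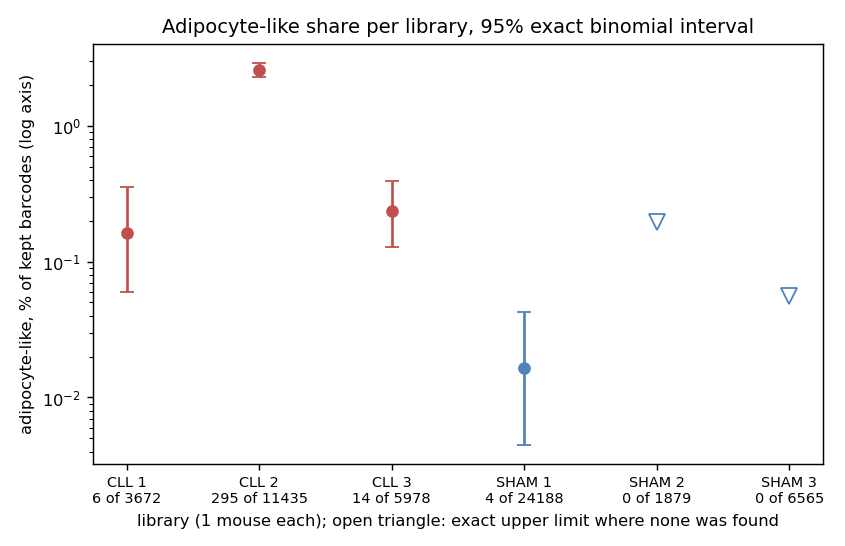
Points give the adipocyte-like share of kept barcodes on a log axis for the 6 libraries, bars the 95% exact binomial interval, and open triangles the 95% exact upper limit of 0.196% and 0.0562% where no member was found, the first of them above CLL replicate 1 at 0.163%. The 3 CLL libraries lie above SHAM replicate 1, with CLL replicate 2 at 2.58%.

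Levels within the members could not be tested between groups, since only 1 SHAM library held any and it held 4 barcodes with 41759 UMIs. The values are given side by side. Some adipocyte genes lay close together across the 4 libraries, such as Fabp4, Pparg and Lipe with the levels given above. Others did not: Retn, Acsl1, Gpd1 and Slc2a4 were highest in SHAM replicate 1, and Trarg1 was at 0 there. By a rule of size chosen after the values were seen, genes were named when every CLL library differed at least 4-fold from SHAM replicate 1 in the same direction. Of 560 genes with levels that could pass, 7 were higher in CLL (1.25%) and 7 lower (1.25%).

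The 7 higher in CLL were Lcn2, Hspb1, Lrg1, Tuba1a, Pmepa1, Sbsn and Fstl1. Fibroblast markers in the members moved the same way (15256, 6969.7, 8009 and 4095 CPM), and their part was not tested. In the first of these sums most of Col1a1 came from 1 barcode, as given above. In fibroblast-like barcodes of the CLL libraries Fstl1 stood at 1848 to 2283 CPM, above its level in the members, and Tuba1a at 741 to 926 CPM. Lcn2 stood at 2346, 2711 and 3168 CPM in the 3 CLL libraries and at 0 in SHAM replicate 1, at least 32.7-fold higher against a floor of 3 counts. It was 0 in each of the 4 barcodes, while fibroblast-like barcodes of the same library held 6.27 CPM. The lowest CLL level of Lcn2, that of CLL replicate 1, leaned on 1 barcode, which gave 204 of its 275 UMIs. All 6 barcodes there held Lcn2, with a median of 1069 CPM per barcode. Lrg1, an acute-phase glycoprotein gene, stood at 2167, 2245 and 2402 CPM in CLL and 359 CPM in SHAM replicate 1 (95% Poisson interval 201 to 592), and Hspb1, a small heat shock protein gene with 2 UMIs in SHAM, at 580.2, 737 and 670.3 CPM and 47.9 CPM (interval 5.8 to 173). Hp fell short of the rule at 3.42-fold, with 6753 CPM in SHAM replicate 1 (interval 5988 to 7589), and so did Saa3 at 2.86-fold, with 694 CPM (interval 465 to 997). The 29 UMIs of Saa3 there all came from 1 barcode, and Hp gave 19 to 164 UMIs in each of the 4.

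The 7 lower in CLL were Thrsp, Fasn, Angptl8, Cebpd, Pex11a, Ighm and Iigp1. Thrsp, a nuclear protein that follows lipogenesis and insulin, stood at 17.1, 86.3 and 31.9 CPM in CLL and 4358 CPM in SHAM replicate 1, where it was 50.5-fold above the highest CLL library. The 4 SHAM barcodes held 14 to 83 UMIs of it each, and the 14 of CLL replicate 3 held 0 to 7 at a higher median depth. Fasn stood at 51.2, 173 and 123 CPM in CLL and 934 CPM in SHAM replicate 1, 5.41-fold above the highest CLL library. Angptl8, an insulin-induced regulator of lipoprotein lipase, stood at 68.3, 54.4 and 38.3 CPM in CLL and 455 CPM in SHAM replicate 1. Klf15, a lipogenic and glucocorticoid-induced factor under the level the rule needed, stood at 0, 17.3 and 25.5 CPM in CLL and 216 CPM in SHAM replicate 1. Ighm is an antibody gene of B cells, with 19 UMIs in the SHAM members. The SHAM members also had the highest median mitochondrial share, 10.6%, and 1 of the 4 was left when at most 10% was allowed. The part of this in these differences was not tested.

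**Figure D5:**
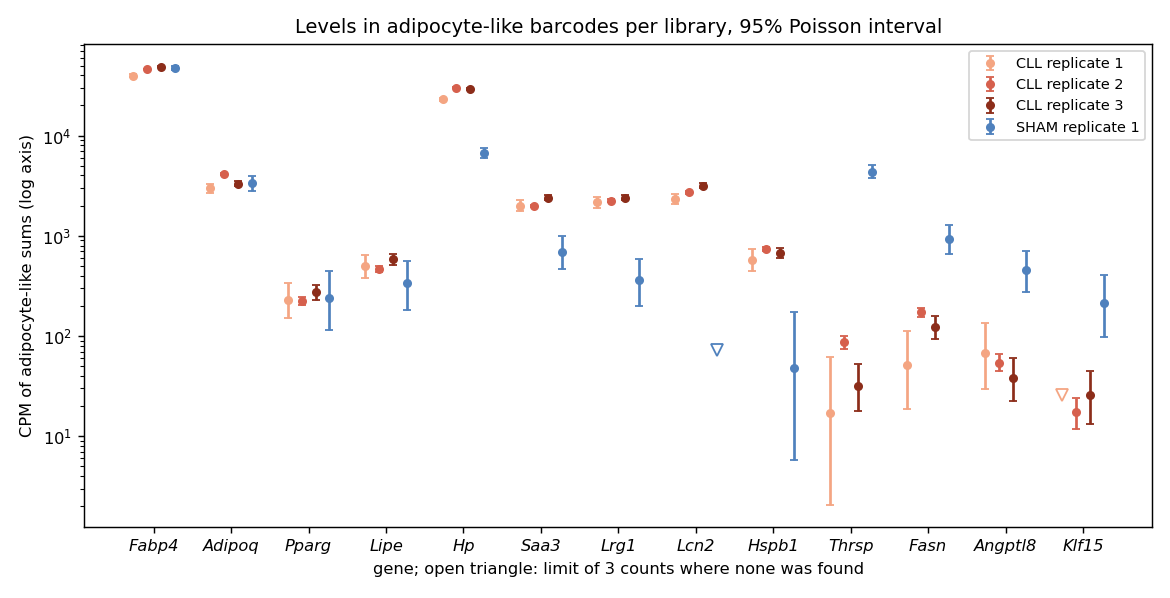
Points give the CPM of genes in adipocyte-like sums of the 4 libraries on a log axis, with 95% Poisson intervals that cover counting error only, and open triangles the limit of 3 counts where a gene was at 0. Points of Fabp4, Adipoq, Pparg and Lipe lie near each other, Lcn2, Lrg1 and Hp are lower in SHAM replicate 1, and Thrsp and Fasn are higher there.

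Whether adipocyte transcripts moved in the whole suspension was asked with all 6 libraries. Counts of all kept barcodes were summed per library, and fewer cells of a type and less RNA per cell cannot be told apart in such sums. Of 16836 genes that edgeR tested, 2939 (17.5%) rose in CLL and 3152 (18.7%) fell. The gate genes chose the members and are tied to their number, so their rise is a description: all 7 were past the threshold, with Adipoq at 19.01, 216 and 28.4 CPM in CLL and 1.81, 0.512 and 2.23 CPM in SHAM (log2 fold 5.85 ± 1.06 SE, edgeR adjusted p = 0.00427). Hp, which the rule did not use, stood at 124, 1425 and 248 CPM in CLL and 6.68, 5.67 and 10.2 CPM in SHAM (log2 fold 6.37 ± 0.97 SE, edgeR adjusted p = 0.00205). Saa3 stood at 18.8, 101 and 23.4 CPM in CLL and 1.96, 1.37 and 2.96 CPM in SHAM (log2 fold 4.56 ± 0.71 SE, edgeR adjusted p = 0.00222). Every CLL library lay above every SHAM library for these 3 genes, and CLL replicate 2 was highest for each.

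Other adipocyte genes went both ways. Fabp4 stood at 326, 2303 and 456 CPM in CLL and 2138, 1532 and 1109 CPM in SHAM (log2 fold -0.56 ± 0.66 SE, edgeR adjusted p = 0.539), with overlapping groups. Without CLL replicate 2 it was lower in CLL, at a log2 fold of -1.93 with an edgeR adjusted p of 0.00104. Cd36 stood at 33.1, 70.9 and 40.1 CPM in CLL and 226, 152 and 129 CPM in SHAM (log2 fold -1.74 ± 0.29 SE, edgeR adjusted p = 0.00291) and Cav1 at 76.5, 111 and 66.8 CPM in CLL and 349, 218 and 215 CPM in SHAM (log2 fold -1.55 ± 0.22 SE, edgeR adjusted p = 0.00158). Both fell without overlap, and in these sums all 8 endothelial markers fell as well (median log2 fold -4.09), as did 12 of 12 macrophage markers (median -1.58). Plin4, which is more restricted to adipocytes, rose, at 2.98, 18.9 and 3.16 CPM in CLL and 0.672, 0.213 and 0.287 CPM in SHAM (log2 fold 4.29 ± 0.85 SE, edgeR adjusted p = 0.00616). Of 14 droplet genes tested 4 rose, G0s2 among them, and 4 fell, and of 19 synthesis genes 9 rose, among them Gpd1, Pck1, Dgat2, Acsl1 and Fasn, and 3 fell. Of 16 secreted proteins tested 8 rose, among them Rbp4, Orm1 and Lcn2, and 5 fell, of 12 uptake genes 1 rose and 5 fell, and of 15 adipogenic factors 1 rose and 4 fell. The median log2 fold of these lists was 0.07 for droplet, 0.31 for synthesis, 0.86 for secreted proteins, -0.51 for uptake and -0.31 for the factors, and -0.01 over all genes tested.

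The sums were repeated without the members, over barcodes outside the gate. Of 16808 genes tested, 2963 were higher (17.6%) and 3225 lower (19.2%) in CLL. The rule had used the 7 gate genes and taken out the barcodes richest in them, so their values here are a description and support nothing. Of these genes 6 were past the threshold and Retn was not, while Car3, Scd1 and Cidec lost their calls in some fits that left out a SHAM library. Adipoq stood at 13.5, 78.4 and 7.08 CPM in CLL and 0.3202, 0.512 and 2.23 CPM in SHAM (log2 fold 5.21 ± 1.12 SE, edgeR adjusted p = 0.0082) and Cfd at 7.78, 54.2 and 3.88 CPM in CLL and 0.758, 0.555 and 0.701 CPM in SHAM (log2 fold 5.06 ± 1.03 SE, edgeR adjusted p = 0.00642). Hp stood at 81.6, 417 and 60.8 CPM in CLL and 3.67, 5.67 and 10.2 CPM in SHAM (log2 fold 4.91 ± 0.83 SE, edgeR adjusted p = 0.00287) and Saa3 at 15.1, 34.95 and 8.07 CPM in CLL and 1.65, 1.37 and 2.96 CPM in SHAM (log2 fold 3.35 ± 0.55 SE, edgeR adjusted p = 0.00257). For these 4 genes every CLL library lay above every SHAM library outside the gate and CLL replicate 2 was highest. Whether their transcripts came from free RNA or from adipocyte barcodes under the threshold was not tested.

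Lcn2 lost its call outside the gate, at 7.13, 15.98 and 1.13 CPM in CLL and 7.98, 0.725 and 0.3503 CPM in SHAM (log2 fold 1.41 ± 1.07 SE, edgeR adjusted p = 0.336), with SHAM replicate 1 inside the CLL range. Without SHAM replicate 1 its log2 fold was 3.95 with an edgeR adjusted p of 0.0455. Fabp4 fell, at 252, 757 and 143 CPM in CLL and 2118, 1532 and 1109 CPM in SHAM (log2 fold -1.97 ± 0.55 SE, edgeR adjusted p = 0.0235), a call lost without CLL replicate 1, SHAM replicate 1 or SHAM replicate 2 (edgeR adjusted p of 0.0832, 0.0720 and 0.0534). Pparg also fell, at 4.79, 6.51 and 3.89 CPM in CLL and 10.3, 12.03 and 9.43 CPM in SHAM (log2 fold -0.995 ± 0.20 SE, edgeR adjusted p = 0.00602), and Cebpa stood at 23.9, 18.8 and 25.6 CPM in CLL and 47.5, 51.1 and 57.7 CPM in SHAM (log2 fold -1.12 ± 0.16 SE, edgeR adjusted p = 0.00121). G0s2 rose, at 32.1, 62.3 and 36.7 CPM in CLL and 22.5, 20.4 and 13.2 CPM in SHAM (log2 fold 1.30 ± 0.26 SE, edgeR adjusted p = 0.00627), and Thrsp fell, at 0.381, 0.971 and 0.261 CPM in CLL and 6.83, 8.19 and 4.17 CPM in SHAM (log2 fold -3.52 ± 0.47 SE, edgeR adjusted p = 0.000987). The groups did not overlap for these 5 genes.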

How the data were processed

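The deposited unit is the raw count: UMIs per gene and barcode in 1 matrix for each of the 6 libraries, made with Cell Ranger 6.1.2 and aligned to mm10 per the submitters' processing notes. The members and gene lists were chosen with earlier results of these data known. Counts were summed per library and gate and tested with edgeR 4.0.16 (quasi-likelihood, TMM, filterByExpr, Benjamini-Hochberg at 0.05), with the library as a block within libraries and with group alone between them. DESeq2 1.42.0 was an alternative. Gate genes got no call against fibroblast-like barcodes. Shares were compared with exact permutation tests over libraries. The fits were checked on simulated counts. Named genes were the gate genes, a fixed set, the 10 largest folds per direction and up to 4 per list. Python 3.11.15, scipy 1.17.1 and scanpy 1.11.5 were used. Of 60282 barcodes 53717 were kept. Some genes are not reported here.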

Additional observations from a re-analysis of the deposited data

How the results depend on the processing

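The share difference kept its direction and its lack of overlap under the 12 other gates and scalings tried, from 0.133 percentage points at a gate share of 5% to 1.51 at 1%, beside 17.3 per 1000 fibroblast-like barcodes. It ran from 0.193 to 1.40 points when 1 library was left out, with CLL replicate 2 giving the lowest. Same-numbered libraries correlated at 0.0505, -0.0866 and -0.0573 in their deviations from the group means, so the numbers share only a name. With the replicate block a two-sided exact sign-flip test gave p = 0.25, the smallest that 3 pairs can give, so it could not pass. EdgeR with the block gave 2593 higher and 2913 lower over all kept barcodes and 2665 and 2983 outside the gate. Against fibroblast-like barcodes, DESeq2 gave 1647 higher and 1358 lower over 2 libraries and 1365 and 1886 over 4. Leaving out 1 of the 4 libraries in turn gave 882 to 2283 higher and 1230 to 3022 lower, with 1329 higher without CLL replicate 3. Drawing each barcode down to 1000 UMIs gave 888 higher and 1096 lower in CLL over all kept barcodes, from fewer UMIs. A minimum of 30 members, a gate share of 5%, or leaving out CLL replicate 2 or 3 left 1 library, and the fit could not be made. The members of CLL and SHAM could not be tested with 5 members per library either. Among genes named here, 792 alternative values against fibroblast-like barcodes kept direction and side of the threshold and 14 kept direction only. In the sums of all kept barcodes Lcn2 lost its call with the block and without CLL replicate 2, SHAM replicate 2 or SHAM replicate 3, which drawing down to 1000 UMIs also took away, and no named gene turned direction in any of the fits made. Depth limits SHAM replicate 1 most: with 41759 UMIs a gene at 0 may stand at up to 71.8 CPM. Alternatives on 8 other genes, per fibroblast-like barcode, at 1000 UMIs and over 4 libraries were chosen after the data had been seen.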
